A study of Mus musculus with 17 samples.

Results

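Of 49 listed symbols of antiviral interferon-stimulated genes, 41 had a row in a count table of 15062 genes from C2C12 cells, a mouse myoblast line. The rows were found by symbol, from a list drawn up with earlier results of these data known. Ddx58 and Rigi are older and current names of the gene for RIG-I, so the list holds 48 genes. The symbols Rigi, Ddx60, Oas1a, Oas2, Oas3, Usp18, Mx2 and Ifi44 were not used here. By role, 6 genes were sensors of viral nucleic acid, 12 were signalling genes, 17 were effectors and 6 were other interferon-responsive genes. Each row of the table reached 10 counts in 3 libraries or more, and a transcript confined to the 2 SRF-PDGFRB libraries could not appear in it. Of the 41 genes, 40 met this in the other lines, and Mx1 met it only with the SRF-PDGFRB libraries counted.

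The series asks what fusion genes of SRF, known from tumours of soft tissue with myoid features, do to transcription. SRF, serum response factor, is a transcription factor of muscle and cytoskeletal genes. The groups were C2C12 cells with pMSCV (a retroviral vector, the control), with SRF, and with the fusions SRF-PDGFRB, SRF-RELA, SRF-FOXO1 and SRF-ICA1L, each named for SRF and its partner gene. There were 3 libraries in each group and 2 in SRF-PDGFRB. All groups shared the C2C12 background and growth medium with fetal bovine serum, and no interferon, virus or other treatment is named in the labels. Whether a line is a pool of cells or a clone, and whether the numbered libraries are separate cultures, is not given in the sources used here, so p-values measure only the spread between these libraries.

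Cells that sense viral RNA make type I interferons, which bind the receptor chains IFNAR1 and IFNAR2 and activate the kinases JAK1 and TYK2. STAT2 and IRF9 are then part of ISGF3, a transcription factor complex that binds interferon-stimulated response elements in the promoters of antiviral genes. Interferon gamma acts through another receptor, and it also induces several of these genes, among them Irf1 and Ifi47. Many of the products feed back on the pathway: RIG-I and MDA5 sense RNA, IRF7 raises interferon synthesis, and MX1, viperin and the IFIT proteins block steps of viral replication.

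The interferon-stimulated response element, written here as GAAA, any 2 bases and GAAA, was searched on both strands of the RefSeq promoters (GRCm38.p6) from 250 bases before to 50 bases after each transcription start. A promoter was in the table for 33 of the 41 genes, and 12 of these (36.4%) held the element, against 379 of 10409 genes of the count table with a promoter (3.64%). The genes with a match were Ifih1, Ddx58, Eif2ak2, Stat2, Trim30a, Rsad2, Ifit1, Ifit3, Ifit3b, Isg15, Bst2 and Ifitm3. A second motif, TTC, any 3 bases and GAA, the gamma-activated site of promoters that answer to interferon gamma, was found in 8 of the 33 genes (24.2%) and in 8.17% of the 10409. Of the genes that the edgeR test below called, Rsad2 had a match to the response element, while Cmpk2, Ifi47, Xaf1 and Parp12 had a promoter without one. Stretches with the response element upstream of the start are shown for 5 effectors described below. Binding of ISGF3 to them was not tested. They run 5′ to 3′ on the strand of the gene, with the element in capitals; some carry it on the other strand, so that it is printed there as its reverse complement.
Ifit1 (chr19:34640760-34640838, plus strand): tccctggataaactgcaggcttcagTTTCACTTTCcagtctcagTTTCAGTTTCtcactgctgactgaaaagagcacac
Ifit3 (chr19:34583348-34583441, plus strand): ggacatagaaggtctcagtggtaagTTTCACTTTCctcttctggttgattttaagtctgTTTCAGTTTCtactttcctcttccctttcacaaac
Isg15 (chr4:156200850-156200921, minus strand): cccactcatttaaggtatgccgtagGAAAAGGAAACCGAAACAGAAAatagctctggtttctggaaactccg
Rsad2 (chr12:26456538-26456597, minus strand): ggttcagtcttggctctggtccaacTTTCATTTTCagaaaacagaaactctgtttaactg
Bst2 (chr8:71537562-71537627, minus strand): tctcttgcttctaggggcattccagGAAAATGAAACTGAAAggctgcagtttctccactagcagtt

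The stretch of Ifit3b (chr19:34607744-34607837, plus strand) was identical to that of its neighbour Ifit3. A match describes letters and not a binding site. Mx1, Zbp1, Dhx58, Parp9, Parp14, Rtp4, Tor3a and Ifi27 had no promoter in the table.

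Library totals lay between 20901442 and 23543734 counts, and values are given as CPM (a gene's counts relative to the library total, which was adjusted by a TMM factor). Srf was at 66.6 to 93.8 CPM in pMSCV and 678 to 1673 CPM in SRF. In SRF-ICA1L it was at 121 to 279 CPM, above pMSCV, and in SRF-PDGFRB at 70.5 to 81.4 CPM, within the range of pMSCV. SRF-FOXO1 (71.8 to 105 CPM) and SRF-RELA (85.0 to 155 CPM) overlapped with pMSCV. Pdgfrb was at 196 to 247 CPM in SRF-PDGFRB and 103 to 345 CPM in pMSCV. Srf counts thus mark the SRF line and leave the identity of the fusion lines unchecked. All 8 myoblast markers had a row (Des, Myog, Chrna1, Pax7, Myod1, Myf5, Cdh15 and Ncam1), and the SRF-PDGFRB libraries lay at the ends of their range. Their summed level was 99.8 CPM in SRF-PDGFRB replicate 1, the lowest of the 17 libraries, and 2059 CPM in replicate 2, the highest. It was 1275 to 1801 CPM in pMSCV, 659 to 1328 CPM in SRF, 219.9 to 274 CPM in SRF-FOXO1, 424 to 1082 CPM in SRF-ICA1L and 327 to 699.6 CPM in SRF-RELA. Myog, the myogenin gene of differentiating myoblasts, was at 0.230 and 85.5 CPM in the SRF-PDGFRB libraries. Of 9 macrophage markers 3 had a row (Lyz2, Cd68 and Csf1r), and their sum ran from 2.49 to 12.6 CPM over the groups, with 11.9 and 2.49 CPM in SRF-PDGFRB. Of 8 dendritic cell and lymphocyte markers only Cd79a had a row, at no more than 0.656 CPM. The part of these differences in the results was not tested, and in bulk RNA a change in the share of cells that express a gene and a change in RNA per cell cannot be told apart.

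Of the 41 antiviral genes, 36 had their highest group mean in SRF-PDGFRB (16.96% of all genes did). Oasl1, Isg20 and Ifitm3 had it in pMSCV, and Ifi27 and Lgals3bp in SRF-FOXO1. In SRF-PDGFRB, 17 of the 41 genes lay above all of the 15 other libraries in both libraries, a pattern held by 0.69% of all genes, and none lay below them (0.252% of all genes). The 17 were the sensors Dhx58 and Zbp1, the signalling genes Irf7, Irf9, Parp14 and Ifi35, the effectors Mx1, Rsad2, Cmpk2, Ifit1, Ifit3, Ifit3b, Herc6, Oasl2 and Bst2, and Xaf1 and Ifi47. Taken singly, replicate 1 was above the 15 other libraries for 31 genes (10.6% of all genes) and replicate 2 for 18 (4.89%). The 2 libraries also lay at the bottom (99.8 CPM, replicate 1) and the top (2059 CPM, replicate 2) of the summed myoblast markers. The 17 genes were picked by their levels in these same libraries, and the part of the markers was not tested.

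The median over the 41 genes of the log2 difference from the pMSCV mean was 1.76 and 0.97 in SRF-PDGFRB replicates 1 and 2. It was -0.19, 0.78 and -0.47 in pMSCV replicates 1 to 3 and -0.25, -0.20 and -0.56 in SRF. The fusion lines gave 0.80, 0.11 and 0.13 in SRF-FOXO1, -0.64, 0.41 and -0.23 in SRF-ICA1L, and -0.21, 0.60 and -0.27 in SRF-RELA. The median over all genes was between -0.01 and 0.04 in every library. Both SRF-PDGFRB libraries were the highest of the 17, with replicate 2 (0.97) close to SRF-FOXO1 replicate 1 (0.80) and pMSCV replicate 2 (0.78). The range of SRF lay below that of SRF-FOXO1, and the other pairs among these 5 groups overlapped.

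**Figure D1:**
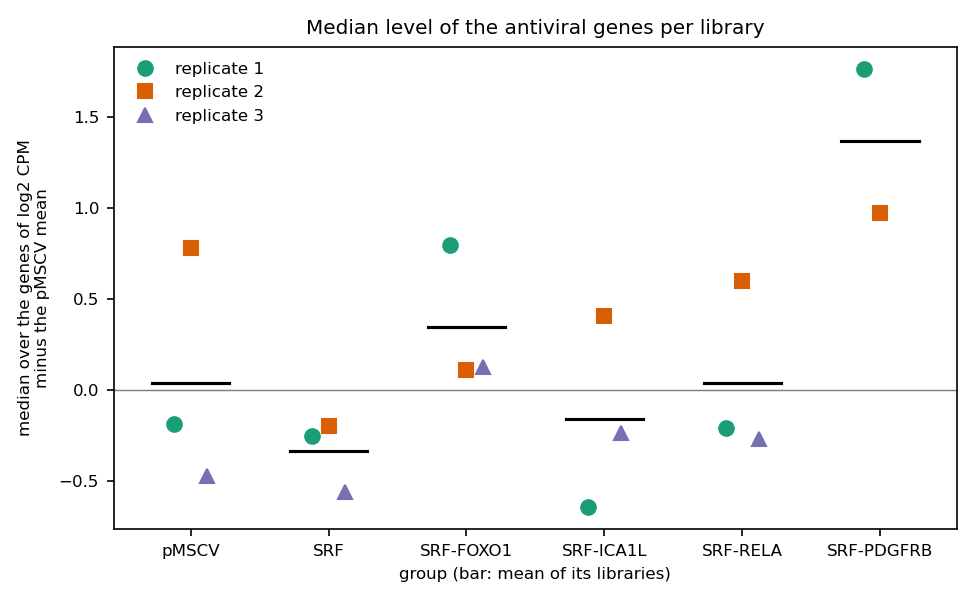
Median over 41 antiviral genes of log2 CPM (prior count of 2) minus the pMSCV mean, for each library by group. Bars are group means and symbols are replicate numbers. Both SRF-PDGFRB libraries (1.76 and 0.97) lie above the 15 others, and replicate 2 is the highest library in pMSCV, SRF-ICA1L and SRF-RELA.

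**Figure D2:**
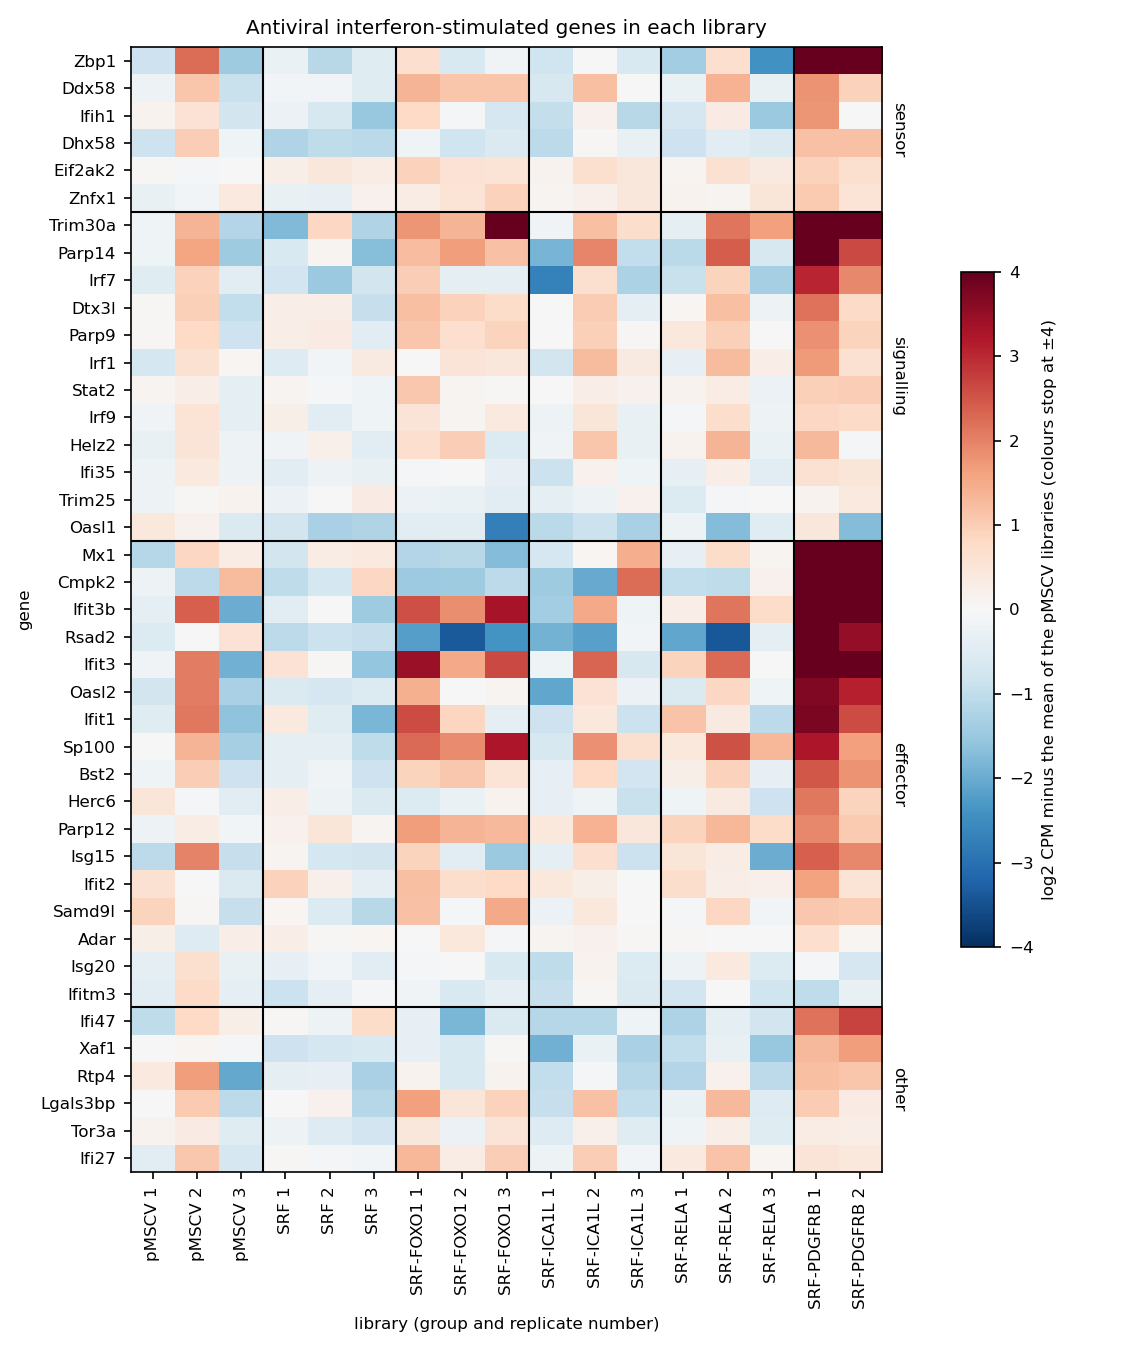
Log2 CPM (prior count of 2) minus the pMSCV mean for 41 genes (rows, by role and then by log2 fold change in SRF-PDGFRB) in 17 libraries (columns). Red is higher and blue is lower, and colours stop at 4 in either direction. The 2 SRF-PDGFRB columns at the right are the reddest, and Ifitm3, Isg20 and Oasl1 do not follow.

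Against pMSCV, the genes had a median log2 fold change of 1.18 in SRF-PDGFRB, beside 0.01 over all genes, and 38 of 41 were higher (51% of all genes were). The quasi-likelihood test of edgeR with Benjamini-Hochberg adjustment called 0 of the 41 and 3 of 15062 genes (0.0199%). Below, called refers to this test unless DESeq2 or another fit is named. The lowest adjusted p of a member was 0.0963, for Mx1. At an unadjusted p under 0.05, 24 genes were higher (4.59% of all genes) and 0 were lower (3.11%), and for 25 the groups did not overlap with SRF-PDGFRB higher (8.67% of all genes). DESeq2 called 6 (Eif2ak2, Ifi47, Mx1, Parp12, Rsad2 and Trim30a), against 0.465% of all genes.

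Against SRF, the median was 1.69 (0.03 over all genes) and 39 of 41 genes were higher (53% of all genes). Mx1 was the single gene of the list called, among 8 called genes (0.0531%). Without adjustment 32 were higher at p under 0.05 (3.52% of all genes), and 34 did not overlap between the groups (13% of all genes). DESeq2 called 16 of the 41 (0.385% of all genes): Mx1, Rsad2, Cmpk2, Ifit1, Ifit3, Ifit3b, Oasl2, Bst2, Sp100, Zbp1, Dhx58, Irf7, Parp14, Trim30a, Ifi47 and Xaf1. Against the mean of SRF-FOXO1, SRF-ICA1L and SRF-RELA, the median was 0.93 (0.02 over all genes), and 6 genes rose among 21 called (0.139%): Mx1, Rsad2, Cmpk2, Zbp1, Ifi47 and Xaf1. DESeq2 called these 6 and Oasl2, Herc6 and Dhx58 (0.305% of all genes). The comparisons with pMSCV, SRF and the other fusions share the 2 SRF-PDGFRB libraries.

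By role, the median log2 fold change in SRF-PDGFRB against pMSCV was 1.04 for the sensors, 1.06 for the signalling genes, 2.0 for the effectors and 0.48 for the other genes. Against SRF the medians were 1.77, 1.17, 2.63 and 1.36 in the same order. Without adjustment, 12 of 17 effectors, 7 of 12 signalling genes, 3 of 6 sensors and 2 of 6 other genes were higher than in pMSCV at p under 0.05 (4.59% of all genes). No test compared the roles.

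Levels can be compared between genes per length of exon, in CPM per kb. In pMSCV they ran from 0.0676 for Mx1 to 15.9 for Ifi27, with Ifitm3 apart at 284. In SRF-PDGFRB the lowest was Oasl1 at 0.254 and Ifitm3 stayed at the top with 171, followed by Ifit3 (26.8), Bst2 (23.2) and Lgals3bp (20.6). Ifit3 had been at 1.92 and Bst2 at 5.78 in pMSCV. Mx1, Trim30a and Cmpk2, the genes with the largest folds against pMSCV, were at 0.0676, 0.0759 and 0.0891 in that line and at 2.29, 2.57 and 2.26 in SRF-PDGFRB.

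**Figure D3:**
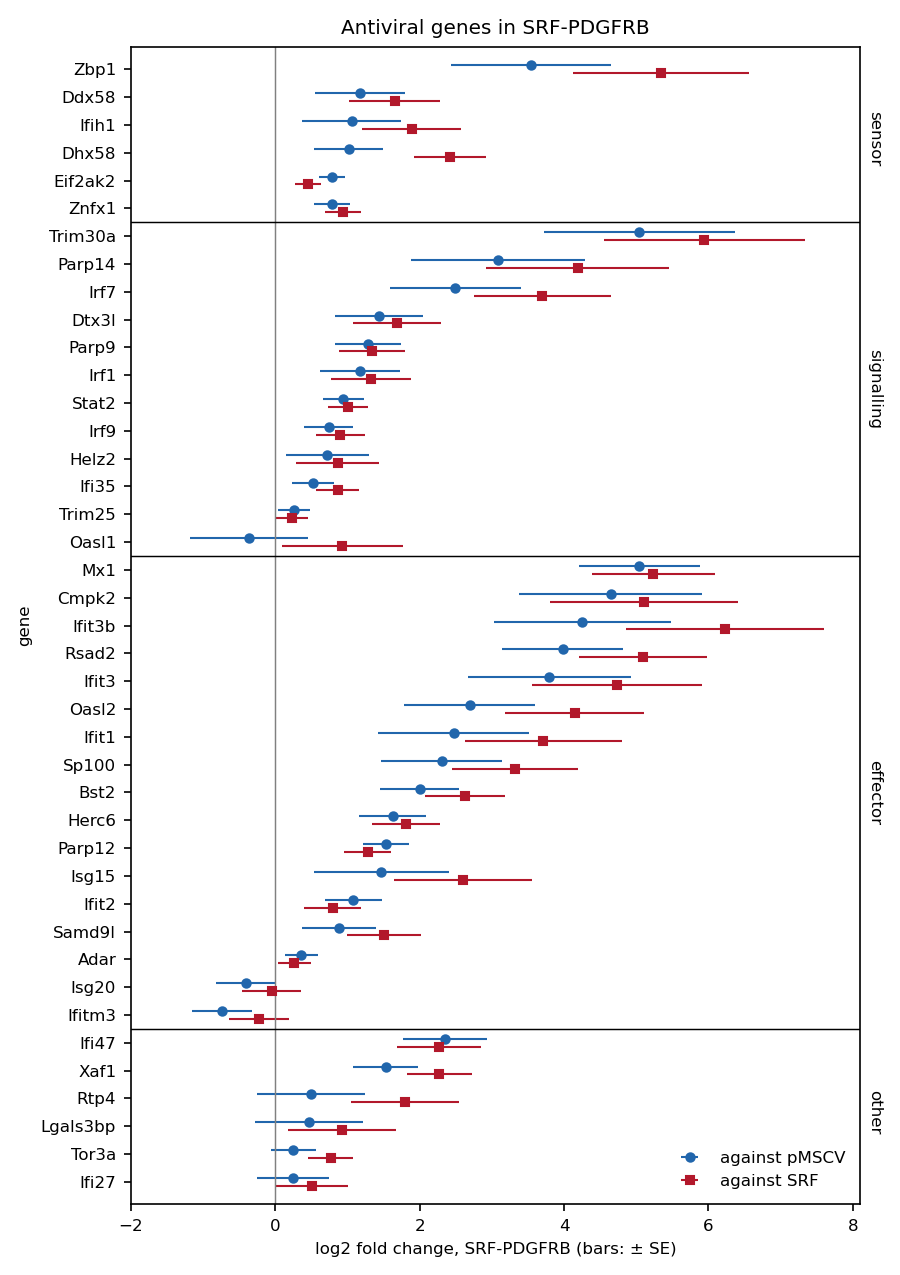
Log2 fold change of 41 genes in SRF-PDGFRB (n = 2) against pMSCV (blue circles, n = 3) and SRF (red squares, n = 3), with bars of ± SE, grouped by role. Most genes lie to the right of 0 in both comparisons, up to 5.04 against pMSCV and 6.23 against SRF, and the widest bars belong to genes with large folds.

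Among the sensors, Zbp1 (ENSMUSG00000027514, chr2:173206612-173218923 in GRCm38) encodes a protein that binds Z-form nucleic acid and can start necroptosis. It was at 0.184, 2.25 and 0.0935 CPM in pMSCV and 0.318, 0.137 and 0.261 CPM in SRF. In the fusion lines it was at 0.697, 0.234 and 0.357 CPM in SRF-FOXO1, 0.193, 0.402 and 0.229 CPM in SRF-ICA1L and 0.0979, 0.684 and 0 CPM in SRF-RELA. SRF-PDGFRB stood at 11.02 and 8.85 CPM, above all other libraries, of which only pMSCV replicate 2 passed 1 CPM. Zbp1 rose against the mean of the other fusions (4.95, SE 0.79, edgeR adjusted p = 0.0184). Its log2 fold change was 3.55, SE 1.10 against pMSCV and 5.34, SE 1.21 against SRF, neither called by edgeR. DESeq2 called it against SRF (adjusted p = 0.00289), and so did edgeR with the 2 groups alone in the fit (0.0366). The call was lost without any of 8 of the 11 libraries compared (all of SRF-FOXO1 and SRF-PDGFRB, SRF-ICA1L replicates 1 and 3, and SRF-RELA replicate 1), with adjusted p up to 0.0848.

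Ddx58 (ENSMUSG00000040296, chr4:40203773-40239828), encoding RIG-I, the helicase that binds short RNA with a 5′-triphosphate, was at 10.1, 25.7 and 6.26 CPM in pMSCV and 10.9, 10.9 and 8.45 CPM in SRF. In the other fusions the levels were 30.2, 25.4 and 25.5 CPM in SRF-FOXO1, 7.61, 27.5 and 11.8 CPM in SRF-ICA1L and 9.74, 30.8 and 9.51 CPM in SRF-RELA. SRF-PDGFRB was at 41.1 and 22.5 CPM, so replicate 2 fell within the range of the other libraries. Replicate 2 was also the high library in pMSCV, SRF-ICA1L and SRF-RELA, at 25.7 to 30.8 CPM. The fold change against pMSCV was 1.18, SE 0.63 on the log2 scale and was not called (adjusted p = 0.708, edgeR).

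Eif2ak2 (ENSMUSG00000024079, chr17:78852564-78882573) encodes PKR, the kinase that stops translation when it binds double-stranded RNA. Its levels were 41.7, 38.7 and 41.2 CPM in pMSCV and 47.98, 55.2 and 50.1 CPM in SRF, 76.1, 60.3 and 58.7 CPM in SRF-FOXO1, 44.6, 62.8 and 55.1 CPM in SRF-ICA1L and 44.2, 61.4 and 51.9 CPM in SRF-RELA, and 76.3 and 63.6 CPM in SRF-PDGFRB. All pMSCV libraries, at 38.7 to 41.7 CPM, lay below every other library. The log2 fold change was 0.79, SE 0.18 in SRF-PDGFRB and 0.68, SE 0.16 in SRF-FOXO1, with edgeR adjusted p of 0.347 and 0.0543, and DESeq2 called both.

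Znfx1 (ENSMUSG00000039501, chr2:167035793-167063015), a helicase that binds double-stranded RNA at mitochondria, was at 39.5, 44.6 and 63.9 CPM in pMSCV and 39.03, 38.7 and 54.8 CPM in SRF. Libraries of the other fusions held 59.1, 70.8 and 92.2 CPM in SRF-FOXO1, 52.1, 55.1 and 65.8 CPM in SRF-ICA1L and 53.5, 52.3 and 67.4 CPM in SRF-RELA, and SRF-PDGFRB 99.8 and 70.1 CPM. SRF-PDGFRB replicate 1 was the highest library and replicate 2 lay among the SRF-FOXO1 values. The fold change against pMSCV was 0.78, SE 0.25 and was not called by edgeR or DESeq2. Ifih1, encoding MDA5, the sensor of long double-stranded RNA, was at 9.64 and 2.76 CPM in SRF-PDGFRB and 0.915 to 4.88 CPM elsewhere, so the groups overlapped. Dhx58, encoding LGP2 of the same helicase family, was at 3.21 and 3.25 CPM in SRF-PDGFRB against 0.545 to 2.82 CPM in the 15 others (2.42, SE 0.50 against SRF, adjusted p = 0.192, edgeR).

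Among the signalling genes, Irf9 and Stat2, which encode subunits of ISGF3, had small folds. Irf9, its DNA-binding subunit, was at 17.04 and 16.4 CPM in SRF-PDGFRB and 7.13 to 15.7 CPM elsewhere (0.74, SE 0.34 against pMSCV). Stat2 was at 38.8 and 39.3 CPM in SRF-PDGFRB, and only SRF-FOXO1 replicate 1 was higher (42.3 CPM). Its log2 fold change was 0.94, SE 0.28 against pMSCV (unadjusted p = 0.00453, adjusted p = 0.484, edgeR). Irf7, the factor that drives most type I interferon genes, was at 1.01, 2.82 and 1.03 CPM in pMSCV and 12.6 and 5.74 CPM in SRF-PDGFRB, above all others (2.50, SE 0.91). None of these was called.

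Irf1 (ENSMUSG00000018899, chr11:53770014-53778374), a transcription factor induced early by interferon gamma, was at 16.7, 41.6 and 28.9 CPM in pMSCV and 18.8, 25.2 and 34.6 CPM in SRF. The remaining fusions gave 27.7, 38.5 and 36.97 CPM in SRF-FOXO1, 16.2, 64.8 and 34.7 CPM in SRF-ICA1L and 21.7, 65.9 and 32.5 CPM in SRF-RELA. SRF-PDGFRB was at 89.6 and 41.6 CPM, and replicate 2 lay below the second replicates of SRF-ICA1L and SRF-RELA. The fold change of 1.17, SE 0.56 against pMSCV was not called.

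Trim30a (ENSMUSG00000030921, chr7:104409025-104465193) encodes a TRIM protein that damps NF-kappaB signalling, and it belongs to a family of near-identical neighbours between which reads may be split. It was at 0.184, 0.705 and 0.0467 CPM in pMSCV and 0, 0.457 and 0.0436 CPM in SRF. In the fusion lines it was at 0.959, 0.703 and 8.696 CPM in SRF-FOXO1, 0.193, 0.625 and 0.412 CPM in SRF-ICA1L and 0.147, 1.28 and 0.886 CPM in SRF-RELA, where SRF-FOXO1 replicate 3 stood far above its partners. SRF-PDGFRB held 13.5 and 7.56 CPM, and that SRF-FOXO1 library lay between its 2 values. The log2 fold change was 5.04, SE 1.32 against pMSCV and 5.94, SE 1.40 against SRF, not called by edgeR (adjusted p = 0.468 and 0.326) but called by DESeq2 in both.

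Parp14 (ENSMUSG00000034422, chr16:35832874-35871544), a mono-ADP-ribosyltransferase, was at 1.94, 6.74 and 0.748 CPM in pMSCV and 1.41, 2.38 and 0.6101 CPM in SRF. The fusion lines had 5.19, 7.08 and 5.04 CPM in SRF-FOXO1, 0.5296, 8.66 and 1.05 CPM in SRF-ICA1L and 0.979, 12.05 and 1.35 CPM in SRF-RELA. SRF-PDGFRB was at 39.6 and 14.01 CPM, above every other library, though SRF-RELA replicate 2 came close to the lower value. Its neighbours on chromosome 16, Dtx3l and Parp9, encode a ubiquitin ligase and its partner. They were at 36.3 and 13.7 and 31.2 and 16.4 CPM in SRF-PDGFRB, with replicate 2 within the range of the other lines. The exons of Dtx3l and Parp9 overlap by 458 bases on opposite strands, and whether counting used the strand is not stated.

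Trim25 and Helz2 were the other abundant signalling genes. Trim25 (ENSMUSG00000000275, chr11:88999376-89020293), the ubiquitin ligase that assists RIG-I, was at 32.9, 38.3 and 41.7 CPM in pMSCV and 31.5, 36.7 and 46.98 CPM in SRF, 32.04, 31.2 and 27.2 CPM in SRF-FOXO1, 29.4, 32.6 and 42.5 CPM in SRF-ICA1L and 25.8, 36.1 and 37.7 CPM in SRF-RELA, and 41.4 and 48.8 CPM in SRF-PDGFRB. Helz2 (ENSMUSG00000027580, chr2:181227615-181242027), a helicase co-activator, was at 19.2, 33.5 and 20.3 CPM in pMSCV and 21.3, 27.2 and 17.6 CPM in SRF, 37.3, 46.6 and 16.1 CPM in SRF-FOXO1, 21.3, 51.03 and 19.04 CPM in SRF-ICA1L and 25.9, 60.3 and 19.5 CPM in SRF-RELA, and 57.8 and 22.7 CPM in SRF-PDGFRB. In both genes the groups overlapped, with log2 fold changes against pMSCV of 0.26, SE 0.22 and 0.72, SE 0.57. Helz2 lost its direction without SRF-PDGFRB replicate 1 (-0.12). Oasl1, an inhibitor of Irf7 translation, was at 1.11, 0.926 and 0.514 CPM in pMSCV and 1.15 and 0.178 CPM in SRF-PDGFRB, and its log2 fold change of -0.36 turned to 0.43 without SRF-PDGFRB replicate 2.

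Among the effectors, Mx1 gave the lowest adjusted p of the list against pMSCV and against SRF. Mx1 (ENSMUSG00000000386, chr16:97447035-97462907) encodes a dynamin-like GTPase that blocks influenza virus in the nucleus. It was at 0.0461, 0.441 and 0.2804 CPM in pMSCV and 0.0909, 0.274 and 0.305 CPM in SRF. In the other fusions the levels were 0.0436, 0.0469 and 0 CPM in SRF-FOXO1, 0.0963, 0.223 and 0.732 CPM in SRF-ICA1L and 0.147, 0.411 and 0.233 CPM in SRF-RELA, where the 3 SRF-FOXO1 libraries held 1, 1 and 0 counts. SRF-PDGFRB held 11.4 and 5.92 CPM (248 and 133 counts), and no other library passed 0.732 CPM. Because Mx1 entered the table only with the SRF-PDGFRB libraries counted, it had to be higher there, and its calls support nothing about the list. Mx1 rose against SRF (5.24, SE 0.85, edgeR adjusted p = 0.0476) and against the mean of the other fusions (5.84, SE 0.59, adjusted p = 0.000337). Against pMSCV the log2 fold change was 5.04, SE 0.84. The call against SRF was lost without any 1 of the 5 libraries compared, with adjusted p from 0.0551 (without SRF-PDGFRB replicate 2) to 0.436 (without SRF replicate 1), while the log2 fold change stayed between 4.68 and 5.63. It was also lost with the 2 groups alone in the fit (0.143). The call against the other fusions held without any 1 of 11 libraries, but its size depends on the prior count because SRF-FOXO1 was under the floor of 3 counts. The same call was lost without all libraries of replicate number 1, a fit with 1 SRF-PDGFRB library.

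Rsad2 and Cmpk2 are neighbours on chromosome 12. Rsad2 (ENSMUSG00000020641, chr12:26442746-26456452) encodes viperin, which makes a chain-terminating nucleotide. It was at 0.876, 1.32 and 2.01 CPM in pMSCV and 0.591, 0.686 and 0.654 CPM in SRF. Libraries of the other fusions held 0.218, 0.0469 and 0.178 CPM in SRF-FOXO1, 0.289, 0.223 and 1.24 CPM in SRF-ICA1L and 0.245, 0.0456 and 1.03 CPM in SRF-RELA, and SRF-PDGFRB 28.2 and 16.2 CPM. The SRF-PDGFRB libraries stood apart from all others, which were at or under 2.01 CPM. Rsad2 rose against the mean of the other fusions (6.02, SE 0.60, edgeR adjusted p = 0.000337), a call held without any 1 of 11 libraries. That call was lost without all libraries of replicate number 1, a fit with 1 SRF-PDGFRB library. The log2 fold change of Rsad2 was 3.98, SE 0.84 against pMSCV and 5.10, SE 0.88 against SRF (edgeR adjusted p = 0.309 and 0.0756), both called by DESeq2.

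Cmpk2 (ENSMUSG00000020638, chr12:26469204-26479837), a mitochondrial nucleotide kinase, was at 0.231, 0.0882 and 0.795 CPM in pMSCV and 0.0909, 0.137 and 0.567 CPM in SRF. The remaining fusions gave 0.0436, 0.0469 and 0.0892 CPM in SRF-FOXO1, 0.0481, 0 and 1.65 CPM in SRF-ICA1L and 0.0979, 0.0913 and 0.326 CPM in SRF-RELA, with 1, 1 and 2 counts in SRF-FOXO1. SRF-PDGFRB was at 7.62 and 11.2 CPM, and the next library was SRF-ICA1L replicate 3. Cmpk2 rose against the mean of the other fusions (5.64, SE 0.89, edgeR adjusted p = 0.0184), a size that again depends on the prior count. The call was lost without any of 6 libraries (all of SRF-FOXO1, SRF-RELA replicates 1 and 2, and SRF-PDGFRB replicate 2), with adjusted p up to 0.145, and with the compared groups alone in the fit (0.0960). Against pMSCV the log2 fold change was 4.65, SE 1.27 and was not called by edgeR or DESeq2.

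**Figure D4:**
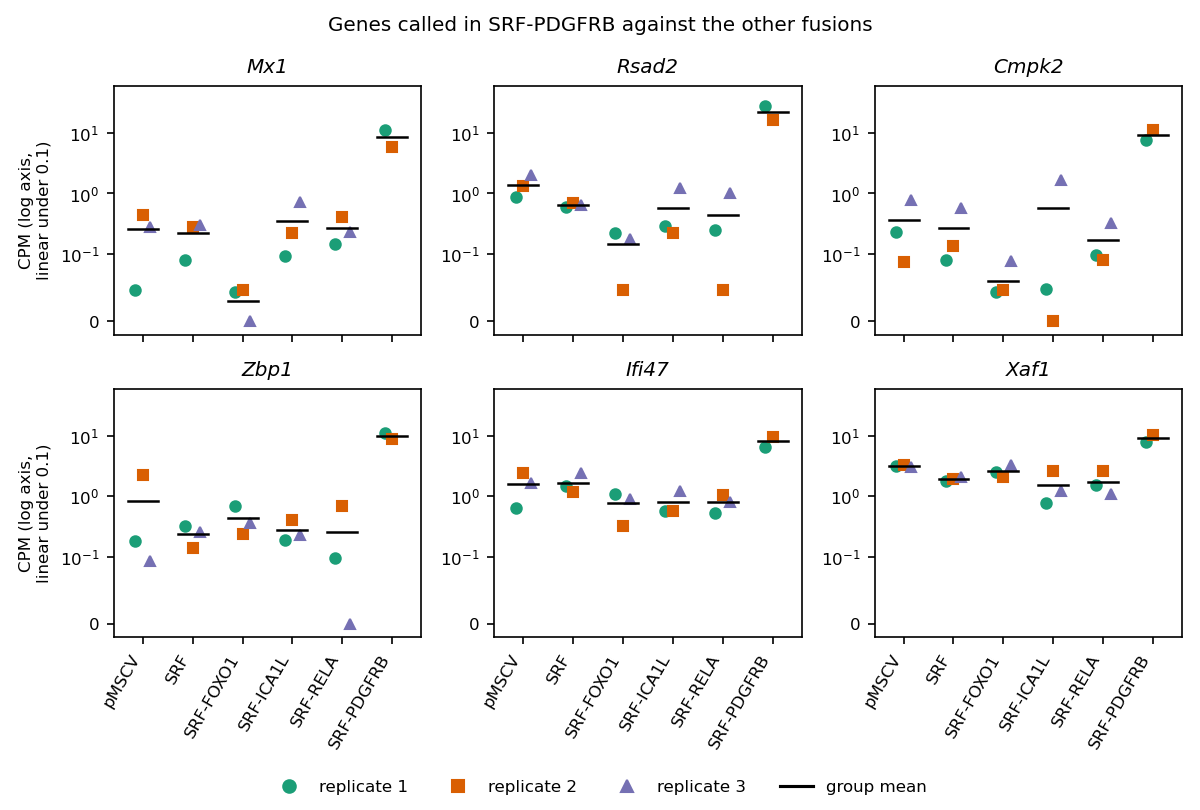
CPM of the 6 genes called in SRF-PDGFRB against the mean of the other fusions, in each library by group, on an axis that is logarithmic above 0.1 CPM and linear below. Symbols are replicate numbers and bars are group means. The 2 SRF-PDGFRB libraries lie above the 15 others in every panel, for genes picked by a test that used these libraries.

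The IFIT genes lie together on chromosome 19 and encode RNA-binding proteins that hold back viral translation. Ifit1 was at 52.1 and 23.6 CPM in SRF-PDGFRB and 1.002 to 23.3 CPM in the 15 other libraries, with SRF-FOXO1 replicate 1 just under the lower value. Ifit3 was at 63.2 and 30.3 CPM against 0.421 to 20.92 CPM, and its near-identical copy Ifit3b at 16.6 and 9.12 CPM against 0 to 3.48 CPM. Reads may be split between Ifit3 and Ifit3b. Their log2 fold changes against pMSCV were 2.47, SE 1.04, 3.80, SE 1.13 and 4.25, SE 1.22, none called.

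Ifit2 (ENSMUSG00000045932, chr19:34550694-34576419) had the smallest fold of the IFIT genes. It was at 50.6, 33.1 and 22.3 CPM in pMSCV and 64.02, 38.9 and 26.3 CPM in SRF. The fusion lines had 76.4, 54.3 and 57.7 CPM in SRF-FOXO1, 44.97, 39.6 and 32.8 CPM in SRF-ICA1L and 55.1, 40.4 and 38.7 CPM in SRF-RELA, and SRF-PDGFRB 101 and 48.4 CPM. Replicate 1 of SRF-PDGFRB was the highest library, and replicate 2 lay within the ranges of SRF and pMSCV and below all SRF-FOXO1 libraries. The fold change was 1.08, SE 0.39 against pMSCV (adjusted p = 0.543, edgeR).

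Isg15, the ubiquitin-like modifier, was at 1.06, 9.26 and 1.17 CPM in pMSCV and 12.3 and 8.94 CPM in SRF-PDGFRB. The groups overlapped through pMSCV replicate 2, and the log2 fold change was 1.47, SE 0.93. Herc6, the ligase that attaches ISG15 in mouse, was at 8.82 and 3.69 CPM in SRF-PDGFRB and no more than 2.77 CPM elsewhere (1.94, SE 0.36 against the other fusions, adjusted p = 0.0684, edgeR). Bst2, encoding tetherin, which holds budding virions at the cell surface, was at 25.7 and 16.1 CPM in SRF-PDGFRB against 2.52 to 9.66 CPM (2.0, SE 0.54 against pMSCV). Oasl2, an OAS-like protein, was at 20.8 and 13.9 CPM against 0.289 to 6.57 CPM (2.69, SE 0.91). Neither Bst2 nor Oasl2 was called against pMSCV, and DESeq2 called both against SRF.

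Parp12 (ENSMUSG00000038507, chr6:39086410-39118349), a mono-ADP-ribosyltransferase, was the single gene called by edgeR in a comparison outside SRF-PDGFRB. It was at 10.5, 14.9 and 11.3 CPM in pMSCV and 13.5, 17.1 and 13.1 CPM in SRF. In the other fusions the levels were 38.7, 30.9 and 29.9 CPM in SRF-FOXO1, 16.1, 32.01 and 16.7 CPM in SRF-ICA1L and 22.7, 30.8 and 20.2 CPM in SRF-RELA, and SRF-PDGFRB 46.01 and 24.8 CPM. Each library of the 4 fusions lay above all 3 pMSCV libraries. Parp12 rose in SRF-FOXO1 against pMSCV (1.44, SE 0.30, edgeR adjusted p = 0.04503). The call was lost without pMSCV replicate 1 (0.131), pMSCV replicate 3 (0.106), or SRF-FOXO1 replicate 1 (0.09998), 2 (0.0505) or 3 (0.151), and with the 2 groups alone in the fit (0.0689). The log2 fold change was 1.53, SE 0.32 in SRF-PDGFRB, 1.01, SE 0.30 in SRF-RELA and 0.82, SE 0.30 in SRF-ICA1L, not called by edgeR. DESeq2 called it in SRF-PDGFRB (adjusted p = 0.00688). With a block for replicate number over the 12 libraries whose numbers pair, Parp12 was called in SRF-RELA (1.01) and SRF-ICA1L (0.78) as well, among 6.48% and 2.99% of the genes of that fit.

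Ifitm3 (ENSMUSG00000025492, chr7:141009586-141010770), which blocks virus entry at endosomes, was the most abundant gene of the list and did not follow the others. It was at 132, 306 and 140.2 CPM in pMSCV and 97.2, 139 and 169.7 CPM in SRF. Libraries of the other fusions held 163, 117 and 137 CPM in SRF-FOXO1, 93.4, 185 and 120.1 CPM in SRF-ICA1L and 104, 179 and 103 CPM in SRF-RELA, and SRF-PDGFRB 87.3 and 144 CPM. SRF-PDGFRB replicate 1 was the lowest of the 17 libraries, and pMSCV replicate 2 was the highest. The log2 fold change of -0.73, SE 0.42 against pMSCV was not called (adjusted p = 0.735, edgeR). Isg20, an exonuclease of single-stranded RNA, was also lower in SRF-PDGFRB than in pMSCV by value (-0.40, SE 0.41), within the spread of the libraries.

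Adar (ENSMUSG00000027951, chr3:89715022-89753446), which deaminates adenosine in double-stranded RNA, shares 1365 exonic bases with Chrnb2 on the opposite strand. It was at 45.3, 27.2 and 46.9 CPM in pMSCV and 46.8, 40.2 and 40.8 CPM in SRF, 39.4, 51.8 and 37.2 CPM in SRF-FOXO1, 41.5, 43.8 and 39.6 CPM in SRF-ICA1L and 39.5, 39.4 and 38.4 CPM in SRF-RELA, and 61.4 and 41.02 CPM in SRF-PDGFRB. SRF-PDGFRB replicate 1 was the highest library and replicate 2 lay in the middle of the others (0.36, SE 0.23 against pMSCV). Samd9l and Sp100, a restrictor of poxviruses and a protein of PML nuclear bodies, were at 31.5 and 30.3 and 17.6 and 5.78 CPM in SRF-PDGFRB. Both overlapped with other fusion lines, and SRF-FOXO1 replicates 1 and 3 exceeded both SRF-PDGFRB libraries in Samd9l (33.5 and 42.3 CPM).

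Of the other genes, Ifi47 and Xaf1 were called. Ifi47 (ENSMUSG00000078920, chr11:49076587-49096974), an immunity-related GTPase induced by interferon gamma, was at 0.646, 2.47 and 1.64 CPM in pMSCV and 1.45, 1.19 and 2.397 CPM in SRF. The remaining fusions gave 1.09, 0.328 and 0.892 CPM in SRF-FOXO1, 0.578, 0.5804 and 1.24 CPM in SRF-ICA1L and 0.539, 1.05 and 0.793 CPM in SRF-RELA, and SRF-PDGFRB 6.57 and 9.65 CPM. No other library passed 2.47 CPM. Ifi47 rose against the mean of the other fusions (3.35, SE 0.43, edgeR adjusted p = 0.00306), a call lost without SRF-PDGFRB replicate 2 (0.0741). Against pMSCV the log2 fold change was 2.35, SE 0.58, called by DESeq2 and not by edgeR.

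Xaf1 (ENSMUSG00000040483, chr11:72301629-72313733) encodes XIAP-associated factor, which promotes cell death. It was at 3.18, 3.35 and 3.08 CPM in pMSCV and 1.77, 1.92 and 2.05 CPM in SRF. The fusion lines had 2.53, 2.06 and 3.34 CPM in SRF-FOXO1, 0.7704, 2.63 and 1.24 CPM in SRF-ICA1L and 1.57, 2.601 and 1.07 CPM in SRF-RELA, and SRF-PDGFRB 8.04 and 10.5 CPM. The 3 pMSCV libraries were tightly grouped and SRF-PDGFRB was above all of the others. Xaf1 rose against the mean of the other fusions (2.26, SE 0.34, edgeR adjusted p = 0.0114), a call lost without SRF-PDGFRB replicate 2 (0.220) and with the compared groups alone in the fit (0.156). Against pMSCV the log2 fold change was 1.53, SE 0.45.

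Ifi27, Lgals3bp and Tor3a were abundant in every line. In SRF-PDGFRB they lay within the range of pMSCV and above all libraries of SRF (13% of all genes lay above SRF without overlap). Ifi27 (ENSMUSG00000064215, chr12:103434211-103440239), a mitochondrial protein, was at 15.03, 42.3 and 12.5 CPM in pMSCV and 20.5, 19.2 and 18.3 CPM in SRF, 50.1, 24.6 and 39.3 CPM in SRF-FOXO1, 17.3, 39.7 and 18.3 CPM in SRF-ICA1L and 26.05, 43.99 and 20.9 CPM in SRF-RELA, and 28.3 and 26.9 CPM in SRF-PDGFRB. Lgals3bp (ENSMUSG00000033880, chr11:118392751-118402092), a secreted galectin-3-binding glycoprotein, was at 35.4, 74.7 and 17.4 CPM in pMSCV and 36.5, 40.0 and 16.3 CPM in SRF, 112, 50.5 and 67.6 CPM in SRF-FOXO1, 18.9, 81.5 and 18.1 CPM in SRF-ICA1L and 29.5, 88.2 and 25.1 CPM in SRF-RELA, and 72.7 and 44.8 CPM in SRF-PDGFRB. The highest library in both was not SRF-PDGFRB but SRF-FOXO1 replicate 1. Tor3a (ENSMUSG00000060519, chr1:156653617-156674356), a torsin family ATPase, was at 63.1, 72.2 and 41.3 CPM in pMSCV and 49.8, 39.9 and 33.8 CPM in SRF, 77.6, 49.05 and 82.5 CPM in SRF-FOXO1, 40.3, 66.4 and 40.97 CPM in SRF-ICA1L and 50.6, 68.6 and 40.9 CPM in SRF-RELA, and 70.9 and 69.2 CPM in SRF-PDGFRB. The log2 fold changes against pMSCV were 0.25, SE 0.50, 0.47, SE 0.75 and 0.25, SE 0.31. Rtp4, a receptor transporter, was at 7.48 and 6.98 CPM in SRF-PDGFRB and 4.24, 10.4 and 0.701 CPM in pMSCV, so pMSCV alone spanned the SRF-PDGFRB values.

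The other lines showed smaller shifts. In SRF against pMSCV, 6 of 41 genes were higher by value (47.9% of all genes) and 35 were lower, with a median of -0.48. The quasi-likelihood test of edgeR called 0 of the 41 (0.00664% of all genes). At an unadjusted p under 0.05, Dhx58 was lower (-1.40, SE 0.46, 1 gene against 2.14% of all genes), and DESeq2 called 0 (0.0266%). The median turned to 0.11 without pMSCV replicate 2. In SRF-ICA1L the median was -0.10, with 18 genes higher (49.7% of all genes), and in SRF-RELA 0.04, with 21 higher (49%), with 0 called by edgeR (0% of all genes in each) and 0 by DESeq2 (0.299% and 0.724%). These fits did not use the replicate number. With the replicate block over 12 libraries, edgeR called 1 member in each line, Parp12, among 2.99% and 6.48% of all genes. Without pMSCV replicate 2 the medians were 0.30 and 0.39, without the second replicate of the fusion line itself -0.54 and -0.41, without SRF-ICA1L replicate 1 0.03 in that line, and without pMSCV replicate 3 -0.17 in SRF-RELA. At an unadjusted p under 0.05, Parp12 and Eif2ak2 were higher in both lines (2.95% and 3.88% of all genes were higher), and Xaf1 was lower in SRF-ICA1L (-1.05, SE 0.42, 3.27% of all genes).

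Against SRF, 30 of 41 genes were higher in SRF-ICA1L (50.7% of all genes) and 34 in SRF-RELA (49.4%), with medians of 0.35 and 0.39. The edgeR test called 0 in each (0% and 0.00664% of all genes) and so did DESeq2 (0.0133% and 0.0598%), and at an unadjusted p under 0.05 the counts of higher genes were 0 (1.24% of all genes) and 2 (2.51%; Sp100 2.33, SE 0.81, Parp12 0.76, SE 0.29). The medians became -0.14 without SRF-ICA1L replicate 2 and -0.0075 without SRF-RELA replicate 2.

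In SRF-FOXO1, genes of the list lay both above and below the controls. Against pMSCV 25 of 41 were higher (50.1% of all genes) and 16 lower, with a median of 0.24, and Parp12 was the single call of edgeR (0.71% of all genes). DESeq2 called 5 (9.05% of all genes): Parp12, Eif2ak2, Sp100 and Trim30a, which were higher, and Rsad2, which was lower. Without adjustment 6 were higher at p under 0.05 (10.3% of all genes): Parp12, Eif2ak2 and Znfx1, described above, Sp100 (2.23, SE 0.79), Trim30a (3.43, SE 1.21) and Ifit2 (0.83, SE 0.36). Mx1 and Rsad2 were lower at that threshold (10.6% of all genes). Rsad2 had a log2 fold change of -3.19, SE 0.88 (adjusted p = 0.0748 by edgeR, 0.00531 by DESeq2 and 0.0273 by edgeR with the replicate block over 17 libraries), with 5, 1 and 4 counts in SRF-FOXO1 and 19, 30 and 43 in pMSCV. Mx1 and Cmpk2 were under the floor of 3 counts in all SRF-FOXO1 libraries, against 1, 10 and 6 counts and 5, 2 and 17 counts in pMSCV.

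Against SRF, 35 of 41 genes were higher in SRF-FOXO1 (50.7% of all genes), with a median of 0.67. The edgeR test called 0 (0.00664% of all genes), 10 were higher at an unadjusted p under 0.05 (11.1% of all genes) and 2 lower (8.11%). DESeq2 called 6, all higher (Ifit3, Ifit3b, Parp12, Samd9l, Sp100 and Trim30a), against 3.96% of all genes. Those higher included Sp100 (3.24, SE 0.83), Ifit3 (2.86, SE 1.06), Ifit3b (3.73, SE 1.25) and Bst2 (1.29, SE 0.50). In SRF-FOXO1 and in SRF-PDGFRB, Ifit3, Sp100, Trim30a and Parp12 were high by value, whereas Rsad2, Cmpk2 and Mx1 had their lowest group means in the first line and their highest in the second.

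Libraries of the same replicate number shared part of their spread. In pMSCV, SRF-ICA1L and SRF-RELA, replicate 2 was the highest of the 3 libraries for 31, 34 and 32 of the 41 genes (39.5%, 37.2% and 39.0% of all genes). It was highest in all 3 groups at once for 27 genes (22.1% of all genes). Znfx1, Trim25, Rsad2 and Cmpk2 had replicate 3 highest in all 3 groups instead (14.04% of all genes). In SRF the highest library varied, and in SRF-FOXO1 it was replicate 1 for 24 genes. What the numbers stand for is not given in the labels.

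Deviations from the group mean in SRF-PDGFRB correlated at -0.509 to 0.345 with those of same-numbered libraries, so matching by number is descriptive here. Within a replicate number, SRF-PDGFRB replicate 1 exceeded pMSCV replicate 1 in 40 of 41 genes (50.6% of all genes), with a median log2 difference of 1.77, and SRF replicate 1 in 40 (50.9%), with 1.91. Against replicate 1 of SRF-FOXO1, SRF-ICA1L and SRF-RELA it was higher in 35, 40 and 40 genes (52.0%, 49.8% and 50.6%), with medians of 0.97, 2.20 and 2.04. SRF-PDGFRB replicate 2 exceeded pMSCV replicate 2 in 28 of 41 genes (52.0% of all genes), with a median of 0.55, and SRF replicate 2 in 38 (49.3%), with 1.09. Against replicate 2 of SRF-FOXO1, SRF-ICA1L and SRF-RELA it was higher in 30, 27 and 28 genes (50.8%, 51.0% and 51.7%), with medians of 0.65, 0.58 and 0.26. Without the libraries of replicate number 2 in all lines, a setting chosen after the data had been seen, edgeR called 17 of the 41 genes in SRF-PDGFRB against pMSCV (5.42% of all genes) and 14 against SRF (2.7%). Without those of replicate number 1 it called 0 in each (0% of all genes), with median log2 fold changes of 0.75 and 1.21. Those fits compare 1 SRF-PDGFRB library, whose spread is assumed to be that of the other groups.

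The pathway upstream was read from 48 further genes: 11 interferon genes, 14 for receptors and JAK-STAT components and 23 for sensing adaptors. None of the 11 interferon genes was used here, 13 of 14 and 19 of 23 of the others were. The edgeR test called none of these 32 in SRF-PDGFRB against pMSCV (0.0199% of all genes). At an unadjusted p under 0.05, 1 of 13 and 3 of 19 were higher (4.59% of all genes), and the medians were 0.12 and 0.31.

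The receptor genes lay near their control levels. The log2 fold changes in SRF-PDGFRB against pMSCV were 0.05, SE 0.16 for Ifnar1, -0.07, SE 0.29 for Ifnar2, 0.17, SE 0.22 for Ifngr1, 0.16, SE 0.31 for Ifngr2 and 0.23, SE 0.28 for Il10rb, all within 1 SE of 0. Ifnar1 was at 59.0 to 80.5 CPM over the 17 libraries, with 68.6 and 75.9 CPM in SRF-PDGFRB. Jak2, a kinase of the interferon gamma receptor, rose in SRF-FOXO1 against pMSCV (1.15, SE 0.21, edgeR adjusted p = 0.0336). It was at 149.6, 119.9 and 192 CPM there, 132 and 91.6 CPM in SRF-PDGFRB and 72.9, 77.5 and 57.6 CPM in pMSCV. In SRF-PDGFRB the log2 fold change of Jak2 against pMSCV was 0.69, SE 0.23, not called. Socs3, an inhibitor of JAK kinases, was at 52.6 and 34.97 CPM in SRF-PDGFRB and 43.7, 119 and 27.01 CPM in pMSCV (-0.53, SE 0.68, not called). Tlr3, the endosomal sensor of double-stranded RNA, was at 5.303, 2.204 and 3.88 CPM in pMSCV, 11.9, 11.4 and 11.2 CPM in SRF-FOXO1 and 16.7 and 8.76 CPM in SRF-PDGFRB (1.75, SE 0.42 against pMSCV, adjusted p = 0.422 by edgeR and 0.0192 by DESeq2). Irf5, a transcription factor downstream of Toll-like receptors, was at 3.86 and 1.02 CPM in SRF-PDGFRB and 0.0909 to 2.65 CPM elsewhere (1.38, SE 0.97), and the groups overlapped.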

How the data were processed

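RNA was sequenced from 17 C2C12 libraries with a stranded kit for polyadenylated RNA, per the labels' protocols. The authors deposited raw read counts per gene, and the submitters' processing notes name FastQC 0.11.8, Trimmomatic 0.39, HISAT2, featureCounts of Subread 2.0.0 and the build GRCm38, with no strand setting. Groups and replicate numbers come from the sample titles. No column lacked a sample.

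Counts were scaled by TMM and tested with edgeR 4.0.16 (quasi-likelihood, robust, with limma 3.58.1 in R 4.3.3), all 17 libraries in 1 fit with group as its term. P-values were adjusted over 15062 genes (Benjamini-Hochberg) separately for 10 comparisons. Called means an adjusted p below 0.05. The SE is the log2 fold change divided by the square root of F. Log2 CPM used a prior count of 2, and 3 counts were taken as a floor. Totals of 20901442 to 23543734 counts make 1 CPM about 20 reads or more, so the spread between libraries (biological coefficient of variation 36.5%) limits precision for all but the weakest genes. On simulated counts for SRF-PDGFRB against pMSCV (14974 genes run), the test recovered 86% of 16-fold and 60% of 4-fold changes. The simulation held no spread shared between libraries of a replicate number. In the data, Mx1 and Trim30a had larger changes in that comparison (log2 fold change 5.04 each) and were not called. The simulated shares therefore do not give the power in these data, and an uncalled gene is not shown to be unchanged.

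Positions and exon lengths come from GENCODE M21 (GRCm38) and promoters from RefSeq. Members, roles, marker lists and pathway lists were chosen with earlier results of these data known. Values in every library are given for genes called in any comparison and, in each role, the 3 with the highest mean CPM and the 2 with the largest fold against pMSCV in SRF-PDGFRB. Pathway genes named are those called, the 2 with the largest fold in each list, and the receptors. One pathway gene is not reported here. Alternatives were RLE scaling, DESeq2 1.42.0, filters on low counts, the compared groups alone, replicate number as a block, and leaving out each library in turn.

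Deviations from the group mean correlated across genes at 0.392 to 0.789 between same-numbered libraries of SRF-RELA, SRF-ICA1L, SRF and pMSCV, and at 0.114 at most between different numbers. By these correlations the numbers pair the 12 libraries of those 4 groups, and SRF-FOXO1 with SRF alone (0.220 to 0.330). The correlations of SRF-PDGFRB, with 2 libraries, ran from -0.509 to 0.345.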

Additional observations from a re-analysis of the deposited data

Results flagged for a closer look

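The difference between fusion lines was tested directly as SRF-PDGFRB minus the mean of SRF-FOXO1, SRF-ICA1L and SRF-RELA. In the quasi-likelihood test of edgeR (adjusted by Benjamini-Hochberg), 6 of the antiviral genes passed, among 21 of 15062 genes (0.139%). The log2 difference was 6.02 for Rsad2 (adjusted p = 0.000337), 5.84 for Mx1 (0.000337), 5.64 for Cmpk2 (0.0184), 4.95 for Zbp1 (0.0184), 3.35 for Ifi47 (0.00306) and 2.26 for Xaf1 (0.0114). For each of the 6, both SRF-PDGFRB libraries lay above all 9 libraries of the other fusions. The 6 genes were picked by the test on these same libraries, so this adds no separate support. Mx1 entered the table only with the SRF-PDGFRB libraries counted and had to be higher there. The calls of Rsad2 and Mx1 held without any 1 of the 11 libraries, and those of the other 4 genes did not. Neither call held without all libraries of replicate number 1, a fit with 1 SRF-PDGFRB library. The log2 differences there were 5.48 for Rsad2 and 5.15 for Mx1. The summed myoblast markers of the SRF-PDGFRB libraries (99.8 and 2059 CPM) span those of the other fusions (219.9 to 1082 CPM), and their part in these differences was not tested.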

How the results depend on the processing

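With RLE scaling and with a filter at a mean of 1 CPM, every median and every count of called members kept its value within 1.5 times or within the spread between libraries. Leaving the filter out tested the same 15062 genes as the main fit, so it could change nothing. DESeq2 called 5 members in SRF-FOXO1 against pMSCV (9.05% of all genes), 6 in SRF-PDGFRB against pMSCV (0.465%), 6 in SRF-FOXO1 against SRF (3.96%), and 16 in SRF-PDGFRB against SRF (0.385%), where edgeR called 1, 0, 0 and 1. With the compared groups alone in the fit, the counts were 0 in SRF-FOXO1 against pMSCV (0.228% of all genes), 4 in SRF-FOXO1 against SRF (3.79%) and 3 in SRF-PDGFRB against SRF (0.0705%: Zbp1, Oasl2 and Rsad2, without Mx1). Against the other fusions 4 were called (0.1%), without Cmpk2 and Xaf1. With the replicate block over 17 libraries, 5 were called in SRF-FOXO1 against pMSCV (6.78%; Znfx1, Parp12, Eif2ak2 and Ifit2 higher, Rsad2 lower), 4 in SRF-PDGFRB against pMSCV (0.332%; Znfx1, Rsad2, Cmpk2, Mx1) and 5 in SRF-PDGFRB against SRF (0.212%; the same genes and Bst2). With the replicate block over 12 libraries, 1 was called in SRF-ICA1L (2.99%) and 1 in SRF-RELA (6.48%) against pMSCV, both Parp12. The block changed no other count of calls by over 1.5 times. The cause of these changes was not tested.

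The fits that left 1 SRF-PDGFRB library are not counted in the ranges of calls over single libraries. Calls lost without a single SRF-PDGFRB library are given with each gene. The ranges of medians, and the ranges over replicate numbers, do include fits with 1 SRF-PDGFRB library. Leaving out each of the remaining libraries in turn, calls ran from 0 to 1 in SRF-FOXO1 against pMSCV (0% to 2.36% of all genes). They were 0 in SRF-PDGFRB against pMSCV (0.00664% to 0.0133%), 0 against SRF (0.0133%) and 4 to 6 against the other fusions (0.0929% to 0.133%). Leaving out all libraries of a replicate number (chosen after seeing the data), they ran from 0 to 13, 0 to 17, 0 to 14 and 0 to 10, and from 0 to 11 in SRF-FOXO1 against SRF, with each highest count found without number 2 (18.4%, 5.42%, 2.7%, 0.546% and 12.5% of all genes). The lowest and highest medians over single libraries were -0.72 and 0.11 for SRF against pMSCV, 0.16 and 0.65 for SRF-FOXO1, -0.54 and 0.30 for SRF-ICA1L, -0.41 and 0.39 for SRF-RELA, 0.84 and 1.62 for SRF-PDGFRB against pMSCV, 0.50 and 0.78 for SRF-FOXO1 against SRF, -0.14 and 0.48 for SRF-ICA1L against SRF, -0.0075 and 0.63 for SRF-RELA against SRF, 1.04 and 1.96 for SRF-PDGFRB against SRF, and 0.56 and 1.52 against the other fusions. Over replicate numbers they were 0.75 and 2.03 for SRF-PDGFRB against pMSCV, -0.11 and 0.65 for SRF-ICA1L against SRF, 1.21 and 2.01 for SRF-PDGFRB against SRF, and 0.52 and 1.81 against the other fusions.

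Among single genes in SRF-PDGFRB against pMSCV, 7 changed direction when libraries were left out (single libraries and replicate numbers together). Their log2 fold changes ran from -0.12 to 2.03 for Ifih1, -2.23 to 0.51 for Oasl1, -0.27 to 1.55 for Helz2, -0.97 to 0.29 for Isg20, -0.039 to 1.61 for Rtp4, -0.076 to 1.05 for Ifi27 and -0.067 to 1.47 for Lgals3bp. With 2 SRF-PDGFRB libraries, small folds could not be told from the spread.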
